A study of Caenorhabditis elegans with 2 samples.

Results

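The genes of 3 short noncoding RNAs were examined for binding by SNPC-4: rpr-1, which encodes the RNA of ribonuclease P (RNase P), mrpr-1, which encodes the RNA of RNase MRP, and yrn-1, which encodes the Y RNA. They were chosen by name and are 3 of the 46926 genes annotated on the WBcel235 assembly, the same sequence as ce11. Chromatin bound by SNPC-4 was pulled down and sequenced (ChIP-seq) from whole Caenorhabditis elegans at the young adult stage, males and females together, their age in days unknown. All animals were of strain YL457, which carries the allele unc-119(ed3) on III and the transgene vrIs87, made of the pie-1 promoter, a GEI-11 and GFP fusion with the GEI-11 3' UTR, and unc-119(+). The series is 1 group of 2 biological replicates with no second condition, so nothing was compared between treatments and no test was made. The 3 genes were set beside each other, their replicates beside each other, and the 3 genes beside other short RNA genes in the same peak lists.

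GEI-11 is another name of SNPC-4, and a second label describes the strain as carrying a C-terminal GFP-FLAG tag on SNPC-4, so the labels do not settle the form of the tag. The pie-1 promoter is active in the germline, and the chromatin came from whole animals, so a peak cannot be assigned to a tissue. Transcription was not measured. The number of reads behind a peak is unknown, and no source used here states the scale of the deposited signal, so signals were ranked only within a list. The means, SDs and ratios over the replicates set values of the replicates' own lists side by side as deposited, and take it that those lists share a scale.

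SNPC-4 is the worm counterpart of SNAP190, which contacts DNA as part of SNAPc, the complex that assembles on the proximal sequence element a short way before small nuclear RNA genes. In animals SNAPc serves both RNA polymerase II, at genes such as those of U1, U5 and the spliced leaders, and RNA polymerase III, at genes such as that of U6, and in vertebrates a TATA box downstream of the element marks the polymerase III genes. RNase P trims the 5′ leader from precursor transfer RNAs, RNase MRP cuts precursor ribosomal RNA, and Y RNAs bind the Ro60 protein, which takes part in RNA quality control. In vertebrates the RNase P, RNase MRP and Y RNA genes are transcribed by polymerase III from promoters that lie before the gene, like U6, and polymerase III stops at short runs of T.

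The sequence before the genes is shown first, because the 3 genes share a pair of words there. Each line below gives the 75 bases before the annotated start, read 5′ to 3′ along the strand of the gene on ce11. Capitals mark an upstream word of 15 bases (AAC, any base, C, 7 bases of any kind, GTC) and the word TATATA where it lies within 40 bp of the start. The mrpr-1 sequence lies at chrII:7200158-7200232 on the plus strand and the yrn-1 sequence at chrIV:7499433-7499507 on the plus strand. The others have the strongest peak of their class among genes with the upstream word, leaving out the chromosome of rpr-1, for U6 (R07E5.16, WBGene00014543, chrIII:10989604-10989678, plus), SL2 (sls-2.8, chrIII:12250390-12250464, plus), U1 (sup-6, chrII:12944968-12945042, minus) and U5 RNA (F42C5.12, chrIV:7316657-7316731, plus). The words of rpr-1 are given by position only.
mrpr-1: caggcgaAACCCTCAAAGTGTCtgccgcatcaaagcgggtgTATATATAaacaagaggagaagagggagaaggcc
yrn-1: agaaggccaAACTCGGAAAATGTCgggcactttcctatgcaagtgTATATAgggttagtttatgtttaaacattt
U6 R07E5.16: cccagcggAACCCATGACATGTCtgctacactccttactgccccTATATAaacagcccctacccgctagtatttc
SL2 sls-2.8: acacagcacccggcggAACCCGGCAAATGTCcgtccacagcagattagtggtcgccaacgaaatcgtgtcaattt
U1 sup-6: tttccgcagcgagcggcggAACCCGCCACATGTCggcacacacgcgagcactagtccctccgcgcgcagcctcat
U5 F42C5.12: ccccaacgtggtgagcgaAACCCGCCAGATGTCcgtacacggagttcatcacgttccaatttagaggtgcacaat
Of the genes shown, mrpr-1, yrn-1 and U6 carry both words with 21 bases between them, and the SL2, U1 and U5 genes carry the upstream word alone. The SmY RNA gene smy-1, not shown, carries both words at another spacing. The words were written down after these sequences had been looked at, so their presence here is a description of the genes.

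All 3 genes held both words in the same arrangement. The upstream word ran from -66 to -52 bp of the start at rpr-1 and yrn-1 and from -68 to -54 bp at mrpr-1. The word TATATA followed 21 bases later, from -30 to -25 bp at rpr-1 and yrn-1 and from -32 to -27 bp at mrpr-1, where an overlapping copy begins at -34 bp. The upstream word on the sense strand was held by 0.445% of all genes in the 100 bp before the start (0.629% on either strand), and TATATA by 2.45% of all genes in the 40 bp before the start. Both words with 21 bases between them were held by 14 of 46926 genes (0.0298%). A match is a description of the sequence and not a measured binding site.

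Those 14 genes were the 3 described here, 10 of the 23 U6 genes and the small nucleolar RNA (snoRNA) gene W05B2.9 on III, where TATATA ends 44 bp before the start and no pooled peak lay within 300 bp. A scan of both strands of the whole genome found the upstream word 8203 times and the full arrangement 14 times, each time within 60 bp before one of these noncoding genes. With 15 to 20 or 22 to 27 bases between the words there were 28 further matches, of which 1 lay before a noncoding gene, and that one was the second TATATA of mrpr-1. A thresholded peak summit lay within 300 bp of 10 of the 14 arrangements, at the 3 genes and at 7 U6 genes. At the other 3 U6 genes, on IV, 7.06% to 20% of the 32-base words within 100 bp of the start were unique in the genome. This share was 41.2% to 56.5% at the 7 U6 genes with a peak and 100% at rpr-1, mrpr-1 and yrn-1. It was also 100% at W05B2.9, which had no peak. Over all 23 U6 genes the median was 54.4% with a thresholded peak and 26.5% without, and B0205.15 (96.5%) was among those without. Whether repeated sequence bears on which U6 copies had a peak was not tested.

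**Figure D1:**
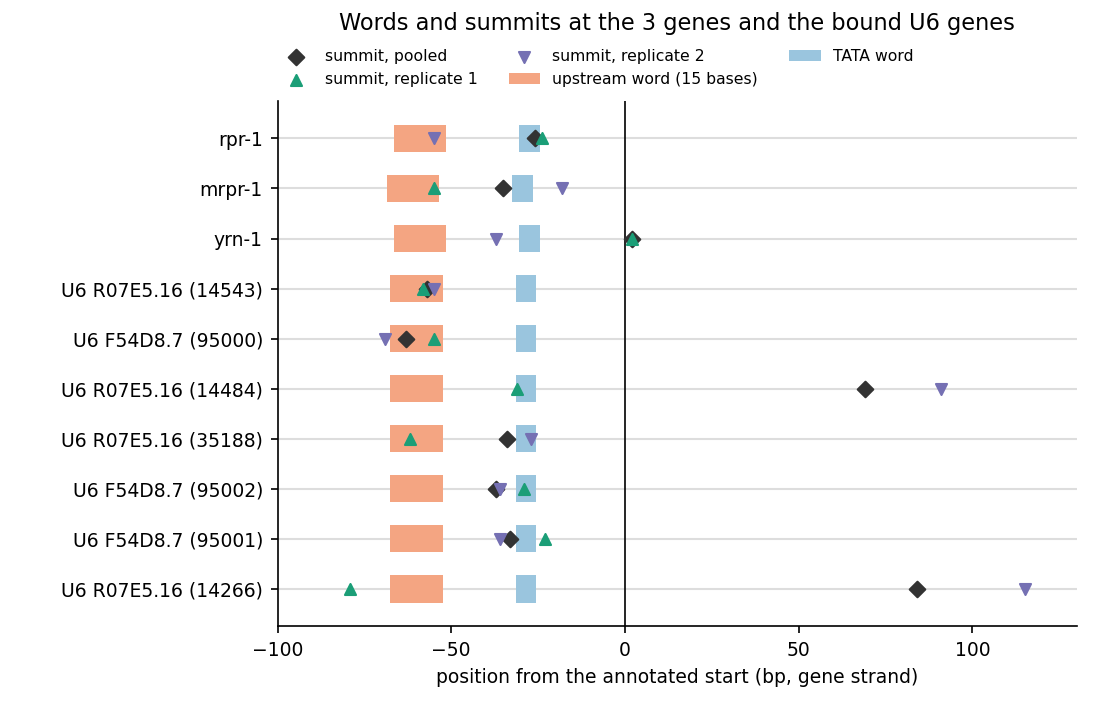
Position in bp from the annotated gene start of the upstream word, the TATA word and the peak summits (pooled list and both replicates) at the 3 genes and at the 7 U6 genes with the arrangement and a peak, 1 row per gene, U6 rows labelled by the last digits of the gene ID. The gap between the words is the same in all rows by the definition of the arrangement. The upstream word begins between -68 and -66 bp in all rows, while the pooled summits range from beside that word to downstream of the start.

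The summits stood downstream of the centre of the upstream word at all 3 genes. The pooled summit lay 33 bp past it at rpr-1 (35 and 4 bp in replicates 1 and 2), 26 bp past it at mrpr-1 (6 and 43 bp) and 61 bp past it at yrn-1 (61 and 22 bp). At the 7 U6 genes the pooled summit lay between -3 and 144 bp from that centre. The values of 129 and 144 bp came from the copies WBGene00014484 and WBGene00014266. Their replicate summits lay far apart, at 29 and 151 bp and at -19 and 175 bp. At every other U6 gene of the 7 the pooled summit lay between -3 and 27 bp, a range that held mrpr-1 but not rpr-1 or yrn-1. At the strongest U6 gene, R07E5.16 (WBGene00014543), the pooled summit lay 3 bp past the centre.

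The ends of the genes were read for runs of T, the stop signal of polymerase III, and are shown because the sequence after the gene also separates the classes. Each line gives the last 5 bases of the annotated gene and the 15 bases after it, with the first run of at least 4 T in capitals, at chrIV:7499608-7499627 for yrn-1 and chrII:7200414-7200433 for mrpr-1, both plus.
yrn-1: gctccTTTTggatttccgag
mrpr-1: tgcTTTTgcaacattttgaa
The run was 4 T long in both and 5 T long at rpr-1. A run of at least 4 T between the last 5 bases of the gene and 10 bases past it was found at all 3 genes, at 22 of 23 U6 genes (95.7%) and at 92.0% of transfer RNA (tRNA) genes. It was found at 1 of 18 SL2 RNA genes, 2 of 10 SmY RNA genes, none of the 13 U1 and 12 U5 genes, and 27.6% of all genes.

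Of 3 other TATA words, 1 was held by all 3 genes. TATAAA lay within 40 bp of the start at mrpr-1 but not at rpr-1 or yrn-1, at 8 U6 genes and at 8.48% of all genes. TTATAA lay at none of the 3 genes and at 3.58% of all genes. The shorter TATAT, which is contained in TATATA, lay at all 3 genes, 16 U6 genes, 1 SL2 and 3 SmY RNA genes, none of the U1 and U5 genes, and 11.6% of all genes.

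Each of the 3 genes had 1 thresholded peak, with its summit within 100 bp of the annotated start. For all genes, a thresholded summit lay within 1000 bp of 8.99% (nuclear genes 8.92%, protein-coding genes 9.21%, genes annotated as ncRNA, the biotype of all 3, 8.41%). Within 500 bp of the start the shares were 5.11% of all genes, 5.04% of nuclear, 4.04% of protein-coding and 6.72% of ncRNA genes, beside 3 of 3 here (exact 95% interval 29.2 to 100%). The interval covers counting error over genes, and the 3 genes were chosen with their peaks known.

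The RNase P RNA gene rpr-1 (WBGene00045238, chrI:13463955-13464207, plus, 253 bp) had the strongest peak of the 3. Its peak ran over chrI:13463622-13464157, 536 bp wide, with a signal of 871 and rank 20 of the 1648 thresholded peaks. The signal was 454 in replicate 1 (rank 23 of 30000 peaks) and 417 in replicate 2 (rank 21), a mean of 435 ± 26.6 (SD, n = 2). At all 3 genes the signals of the replicates' own lists were lower than the pooled one, and at rpr-1 their ranks stayed within 3 places of the pooled rank. The summit lay at 13463929, 26 bp before the start, and at -24 and -55 bp in replicates 1 and 2.

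Peaks besides the main one within 1 kb of rpr-1 were weak. In the pooled list they had signals of 7.54 at 757 bp downstream of the start (rank 20516, 115 times below the main peak) and 5.15 at -996 bp (rank 28284). Replicate 1 held 13.8 at 757 bp (rank 3666) and 9.47 at -847 bp (rank 7310), and replicate 2 held 4.70 at 868 bp (rank 18832) and 4.46 at -969 bp (rank 19927). The downstream peak had the same summit in the pooled list and replicate 1, and the others differed in place between lists. None of these was in the thresholded set, whose lowest signal is 36.6.

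The RNase MRP RNA gene mrpr-1 (WBGene00045095, chrII:7200233-7200418, plus, 186 bp) came second. Its peak ran over chrII:7200029-7200384, 356 bp wide, with a signal of 427 and rank 63. The signal was 231 in replicate 1 (rank 64) and 224 in replicate 2 (rank 57), a mean of 227 ± 4.74 (SD, n = 2), the closest replicate values of the 3 genes. The summit lay at 7200198, 35 bp before the start, and at -55 and -18 bp in replicates 1 and 2. Replicate 1 alone held further peaks within 1 kb, with signals of 8.37 at -682 bp (rank 8903) and 4.91 at 940 bp (rank 17609).

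The Y RNA gene yrn-1 (WBGene00006967, chrIV:7499508-7499612, plus, 105 bp) had a weaker peak. Its peak ran over chrIV:7499446-7499568, 123 bp wide, with a signal of 82.8 and rank 431. The signal was 40.2 in replicate 1 (rank 529) and 47.5 in replicate 2 (rank 342), a mean of 43.9 ± 5.20 (SD, n = 2). This is the one gene of the 3 at which replicate 2 was the higher. The summit lay at 7499510, 2 bp inside the gene, at the same place in replicate 1 and at -37 bp in replicate 2.

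The narrow pooled peak of yrn-1 was followed by a weak one. It overlapped a second pooled peak (chrIV:7499534-7499883, summit at 201 bp, rank 18054) with a signal of 8.49, which is 9.75 times lower. Each replicate held a single peak here, 316 and 324 bp wide, the most common width of its list, so the second peak was seen in the pooled list only. The main peaks of all 3 genes stood at the highest −log10 q-value of each list. That ceiling was 3.98 in the pooled list, shared by 4814 of 30000 peaks, 4.04 in replicate 1, shared by 5485, and 3.98 in replicate 2, shared by 4736, so q-values do not order them.

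The order rpr-1, mrpr-1, yrn-1 was the same in both replicates. The pooled signal of rpr-1 was 2.04 times that of mrpr-1, with 1.97 and 1.86 in replicates 1 and 2. It was 10.5 times that of yrn-1, with 11.3 and 8.76. The signal of mrpr-1 was 5.16 times that of yrn-1, with 5.74 and 4.71. The gaps between the genes were wider than the spread between replicates, whose SD was 6.10% of the mean at rpr-1, 2.08% at mrpr-1 and 11.8% at yrn-1.

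**Figure D2:**
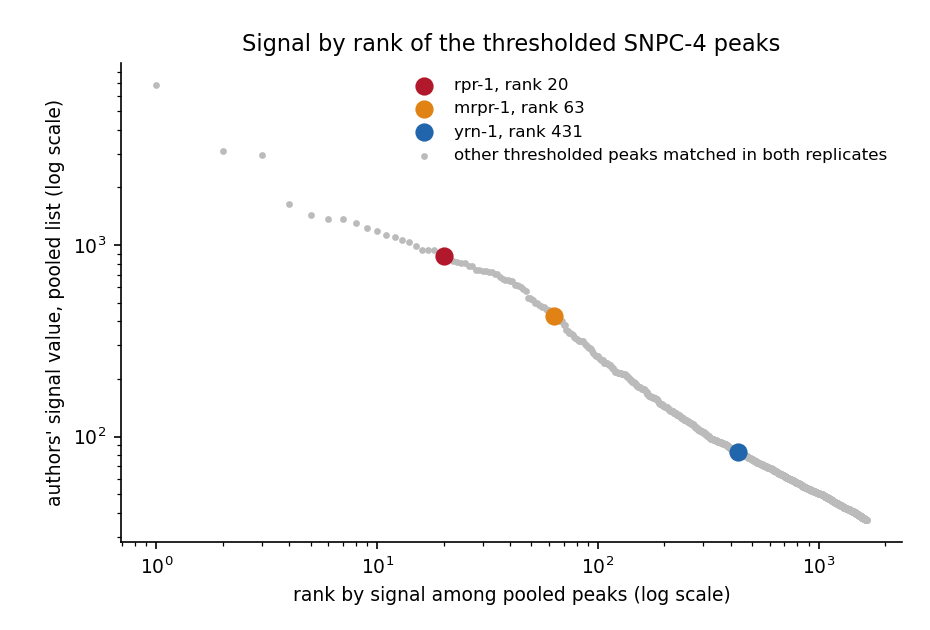
Signal (log axis) against rank (log axis) of the thresholded peaks matched in both replicates, with the peaks of rpr-1, mrpr-1 and yrn-1 marked. The 3 peaks stand at ranks 20, 63 and 431 of 1648.

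Against the thresholded set, rpr-1 was at the top 1.21%, mrpr-1 at the top 3.82% and yrn-1 at the top 26.2%. Their signals were 23.8, 11.7 and 2.26 times the lowest thresholded signal and 15.5, 7.59 and 1.47 times the median of 56.3. With the mitochondrial peaks left out the ranks were 16, 50 and 405.

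The replicates were close at these genes when set beside other peaks. The log2 ratio of replicate 1 to replicate 2 was 0.12 at rpr-1, 0.04 at mrpr-1 and -0.24 at yrn-1. Over the 1595 thresholded peaks matched in both replicates within 200 bp (96.8% of 1648), the median ratio was 0.17 on the log2 scale, with quartiles of -0.40 and 0.66. The median size of the log2 gap was 0.54, and 88.2%, 96.0% and 75.4% of the matched peaks had a gap at least as large as rpr-1, mrpr-1 and yrn-1. All 3 genes thus lay on the closer side of the median peak. Most of the matched peaks were weaker than those of the 3 genes, and peaks of like strength were not set apart. The closeness is therefore not shown to be particular to these genes.

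**Figure D3:**
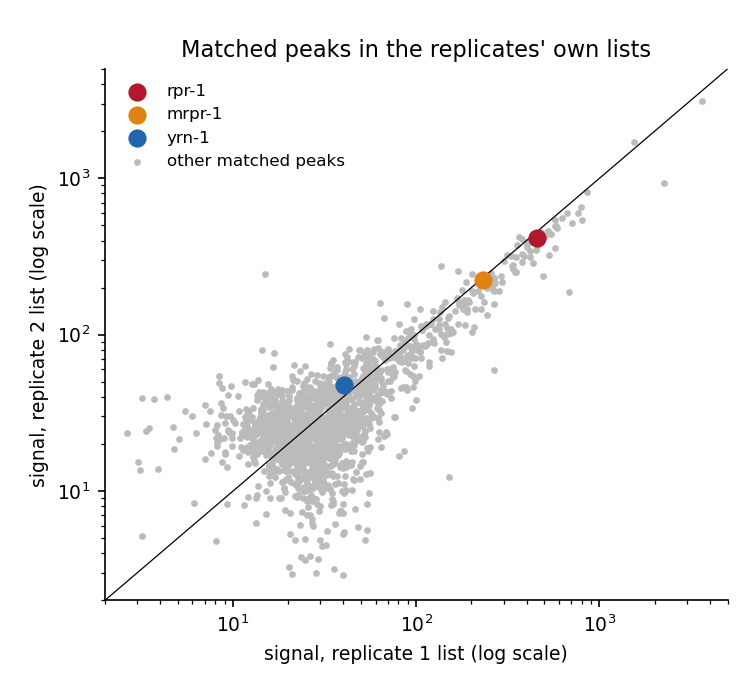
Signal of replicate 1 against replicate 2 (both log axes) at the 1595 matched thresholded peaks, with rpr-1, mrpr-1 and yrn-1 marked and the line of equal signal drawn. The 3 genes lie beside the line, yrn-1 on the side of replicate 2.

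Summit positions were less exact than signals. Replicate summits differed by 31 bp at rpr-1, 37 bp at mrpr-1 and 39 bp at yrn-1, and the mean position was -39.5 ± 21.9 bp, -36.5 ± 26.2 bp and -17.5 ± 27.6 bp (SD, n = 2 each). The median gap of matched peaks was 33 bp and the upper quartile 65 bp, and 53.0%, 46.3% and 44.5% of the peaks had a gap at least as large. The mean positions of any pair of the 3 genes differed by no more than the larger SD of the pair.

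Around rpr-1 and mrpr-1 the main peak stood far above the rest of the region, and around yrn-1 it did not. Within 10 kb of the start, the pooled list held 12 peaks at rpr-1, 7 at mrpr-1 and 10 at yrn-1, the main ones included. The main peak was 85.9 times the strongest other one at rpr-1 (33.0 and 46.9 in replicates 1 and 2), 30.8 times at mrpr-1 (23.7 and 40.9) and 1.90 times at yrn-1 (2.17 and 1.76). Of the 1621 nuclear thresholded peaks, 3.58%, 4.63% and 43.2% had a ratio at least as high, and the median was 1.63. The ratio rises with the signal of the main peak itself, and peaks of like strength were not set apart. The shares are therefore not shown to be particular to these regions.

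The nearest other thresholded peak lay 50436 bp downstream of the start of rpr-1, near the protein-coding gene Y87G2A.18 (signal 48.7, rank 1066). Counted from the start of mrpr-1 it lay at -16072 bp, at the snoRNA gene C27H5.9 (59.7, rank 746). It lay 8727 bp downstream of yrn-1, near the protein-coding gene R05G6.5 (43.6, rank 1265). The median distance of nuclear peaks to their nearest neighbour was 10783 bp, and 17.3%, 40.4% and 54.8% of them were at least as far from theirs as the peaks of rpr-1, mrpr-1 and yrn-1.

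**Figure D4:**
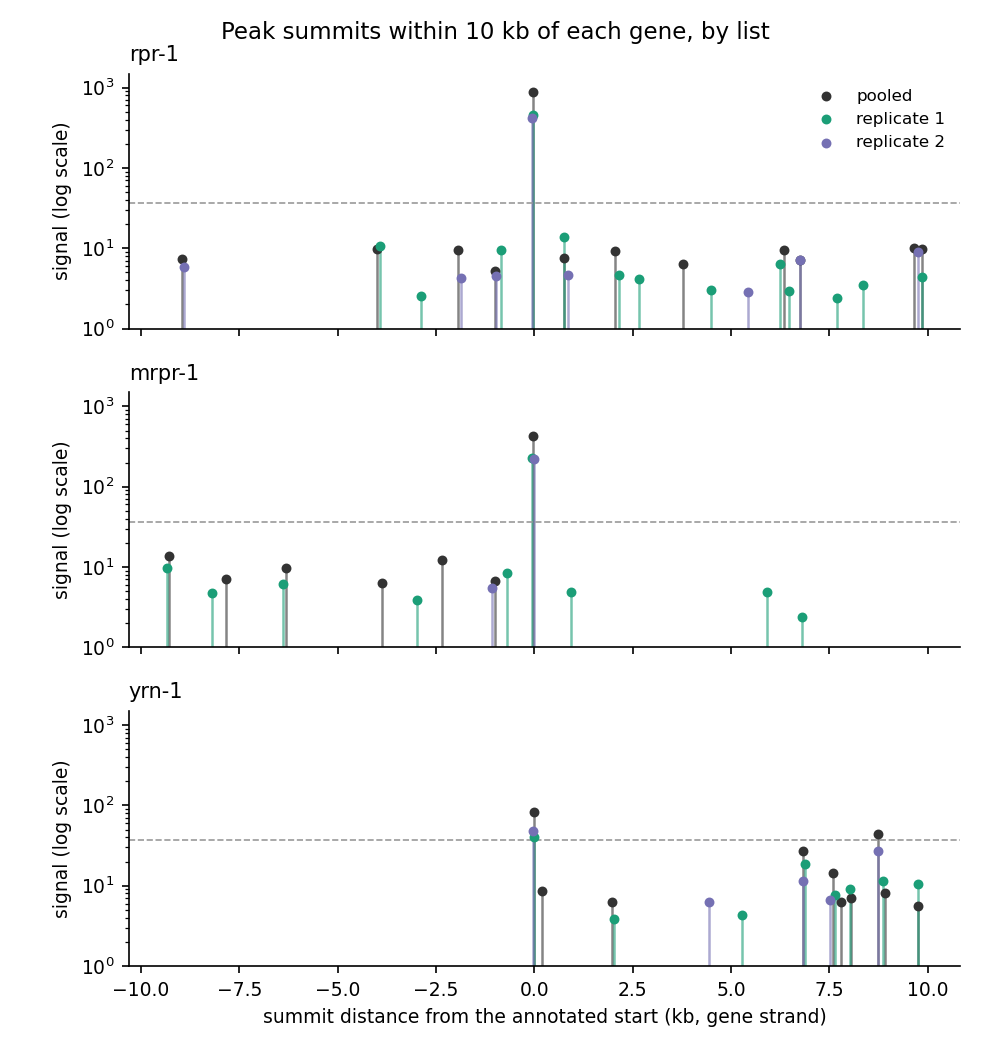
Peaks of the pooled list and of both replicates' lists by distance from the start of rpr-1, mrpr-1 and yrn-1 in kb (x) and signal on a log axis (y). The dashed line is the lowest thresholded signal of 36.6, a value of the pooled list. In the pooled list the main peak alone passes the line at rpr-1 and mrpr-1, and at yrn-1 a peak of 43.6 also does.

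The genes next to them bear on whose peak each one is. The gene rpr-1 lies inside an intron of ints-8, a subunit gene of the Integrator complex, which processes RNA polymerase II transcripts, on the opposite strand (chrI:13455356-13470371). The summit was 6442 bp past the start of ints-8 and in none of its exons, and no annotated gene other than rpr-1 started within 1 kb of rpr-1. The gene yrn-1 lies inside an intron of the protein-coding gene F55G1.15 (chrIV:7498053-7501437, minus), with the summit 1927 bp past that start. It also lies inside the annotated noncoding gene F55G1.20 (chrIV:7499419-7499643, minus), whose exon covers yrn-1, the summit and the upstream words, and whose start is 133 bp from the summit.

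The gene mrpr-1 lies between protein-coding genes and inside neither. The start of pcrg-1 (chrII:7200549-7201882, plus) is 131 bp past its end, and the summit lay at -351 bp from that start. E04F6.6 (chrII:7197391-7199565, minus) starts 668 bp from mrpr-1, and the summit lay at -633 bp from its start. By a window of 500 bp the peak of mrpr-1 is therefore also counted for pcrg-1, and that of yrn-1 for F55G1.20. The summits were nearer to the starts of mrpr-1 (35 bp) and yrn-1 (2 bp).

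Set beside other short RNA genes with peaks, rpr-1 and mrpr-1 stood high and yrn-1 low. The classes were U6, the SL2 spliced leader of downstream genes in operons, SmY RNA, whose product accompanies spliced leader particles, and U1 and U5 of the spliceosome. Of these 76 genes, 54 had a summit no more than 500 bp from the start, which is 71.1% (exact 95% interval 59.5 to 80.9%), at 52 distinct peaks. Of the 52 peaks, 4 were stronger than that of rpr-1, 12 stronger than that of mrpr-1 and 44 stronger than that of yrn-1. The 4 above rpr-1 were 3 SL2 peaks and 1 U6 peak. The median share of unique 32-base words within 100 bp of the start differed between the classes. At genes with a peak it was 54.4% for U6, 56.5% for U1, 57.6% for U5, 87.1% for SL2 and 100% for SmY. At genes without a peak it was 26.5% for U6, 0% for U1, 87.6% for U5, 95.9% for SL2 and 93.5% for SmY. At rpr-1, mrpr-1 and yrn-1 it was 100%. Whether this bears on the order of the signals was not tested.

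Against U6, the class with the same pair of words, rpr-1 and mrpr-1 again stood high and yrn-1 low. Of 8 U6 peaks, 1 was above rpr-1, 2 were above mrpr-1 and 6 were above yrn-1. The U6 peaks had a median signal of 171 and reached 1042, and their 8 genes were 34.8% of 23. The strongest U6 copy, R07E5.16 (WBGene00014543), had 571 in replicate 1 and 495 in replicate 2. The U6 peaks below yrn-1 had signals of 78.7 and 72.1.

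The polymerase II classes had their own ranges. SL2 RNA genes had a median signal of 316 and reached 1429, with 3, 6 and 15 of 16 peaks above rpr-1, mrpr-1 and yrn-1. U1 genes had a median of 171 and reached 648, with 0, 2 and 8 of 10 peaks above them. U5 genes had a median of 206 and reached 781, with 0, 2 and 10 of 10. The 10 SmY RNA genes had a median of 145 and reached 409, with 0, 0 and 5 of 8. The value of 409 was assigned to smy-1 by the window of 500 bp, and its summit, at 273 bp, lay outside that gene. A separate peak with its summit inside smy-1 had a signal of 138. Which gene the stronger peak belongs to was not tested. The next strongest SmY peak was that of smy-8, with 264 and its summit at -43 bp. The genes smy-2 and smy-3 are annotated as snoRNA and were not counted with the SmY RNA genes.

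**Figure D5:**
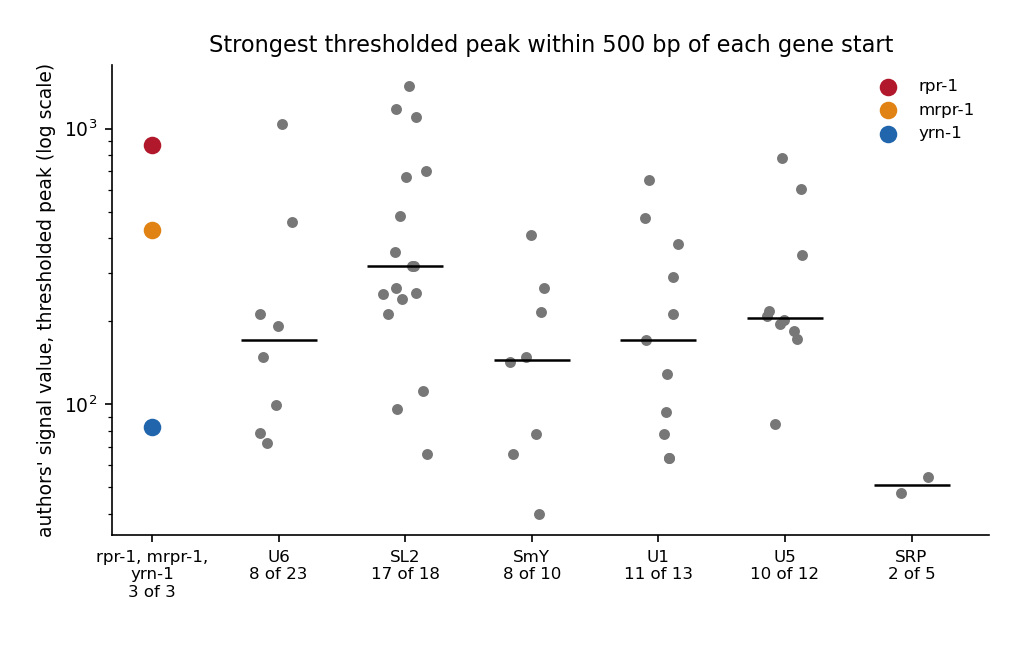
Signal (log axis) of the thresholded peaks at rpr-1, mrpr-1 and yrn-1 and at U6, SL2, SmY, U1, U5 and signal recognition particle (SRP) RNA genes, 1 point per distinct peak with the class median over bound genes as a line. The peak of rpr-1 lies above all U1, U5 and SmY points and yrn-1 lies below all U5 points.

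The words followed the classes. The upstream word was read at 3 of the 3 genes, 11 of 23 U6 genes (47.8%), 9 of 18 SL2 RNA genes, 11 of 13 U1 genes (84.6%), 9 of 12 U5 genes and 2 of 10 SmY RNA genes. TATATA was read at 3 of 3, at 16 U6 genes (69.6%), at 1 SmY RNA gene and at none of the SL2, U1 and U5 genes. That SmY RNA gene, smy-1, also held the upstream word, at another spacing. The arrangement was read at 3 of 3, at 10 U6 genes (43.5%) and at none of the other 4 classes. The median pooled summit positions were -35.5 bp at U6, -46 bp at SL2, -43.5 bp at SmY, -51 bp at U1 and -52 bp at U5 genes. All were within 1 SD of the replicate means of rpr-1 and of mrpr-1, which is another measure. At yrn-1, with -17.5 ± 27.6 bp (SD, n = 2), the U6 and SmY medians were within 1 SD, and the SL2, U1 and U5 medians lay further upstream. By pooled summits, yrn-1 (2 bp) lay downstream of the upper quartile of each class, of which U6 had the furthest downstream (-7.5 bp). The pooled summit of rpr-1 (-26 bp) lay downstream of that of each class but U6, and mrpr-1 (-35 bp) of SL2 and U1 only.

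The upstream sequence was also read with the 10 octamers held by most of 68 bound U1, U2, U4, U5, U6, SL2 and SmY RNA genes. These were found on both strands without the 3 genes. Several of them overlap one another, and several hold AACCC or its reverse complement, which can begin the upstream word. Their counts are therefore neither counts of separate sites nor a reading independent of that word. Of these octamers, rpr-1 held 4, mrpr-1 held 1 and yrn-1 held none in the 100 bp before the start. The one held most often, CGGAACCC, was in 25 of the 68 genes (36.8%) and in 0.166% of all genes. The one in mrpr-1, CGAAACCC, overlaps the start of its upstream word and was in 14 of the 68 (20.6%) and in 0.200% of all genes. In the 60 bp before the start, all 3 genes held 0 of the octamers. The upstream word begins before that window at all 3 genes, so an octamer across its first base could not be counted there.

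Among 493 short noncoding genes with a distinct thresholded peak matched in both replicates, those most like each gene in rank over the 3 lists (smallest sum of log2 rank differences) were named. Beside rpr-1 stood the snoRNA genes Y55F3BR.9 on IV (signal 907, sum of differences 0.420), Y74C9A.6 (867, 0.577) and T26A8.6 on IV (939.5, 0.608). Their means over the replicates were 463 ± 54.1, 435 ± 2.45 and 468 ± 15.9 (SD, n = 2 each), beside 435 ± 26.6 at rpr-1. Beside mrpr-1 stood the tRNA gene WBGene00014617 on V (439, 0.0930), smy-3 on V (465, 0.335) and the snoRNA gene C18A3.12 on II (460, 0.406). Beside yrn-1 stood the tRNA genes WBGene00014364 (93.4, 0.309) and WBGene00023077 (83.4, 0.338) on X and the snoRNA gene Y43B11AR.7 on IV (82.6, 0.344).

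The likeness is one of rank alone. Summits at 8 of these 9 genes lay between -52 and -24 bp of the start, beside -35 to 2 bp at the 3 genes, and at Y43B11AR.7 the summit lay at 385 bp. The upstream word was read at Y55F3BR.9, Y74C9A.6, smy-3 and C18A3.12, and TATATA within 40 bp at none of the 9.

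The genes of proteins that work with these RNAs were read from a list of names. Of 15 listed genes, 7 were found in the annotation under their names: popl-1, popl-4, popl-5 and popl-7 (RNase P and MRP subunits), rop-1 (the Ro60 protein), ssb-1 (the La protein, which binds the T-rich end of polymerase III transcripts) and hoe-1 (tRNase Z, which trims the 3′ end of precursor tRNAs). None of the 7 had a thresholded summit within 500 bp of the start, beside 4.04% of all protein-coding genes. In the pooled list 6 had some peak there, with signals of 26.0 at popl-7 (rank 3053), 15.2 at ssb-1, 7.96 at popl-1, 7.56 at hoe-1, 5.66 at rop-1 and 5.23 at popl-4, and popl-5 had none. All were below 36.6, the lowest thresholded signal, and below the peaks of the 3 RNA genes.

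A further 3 RNase P subunit genes known by their RefSeq product names were added after the lists had been read. H35B03.2 (the p30 subunit; chrIV:5729658-5731674, minus) had a thresholded peak of 58.6 (rank 770) with its summit 118 bp before the start, and 15.3 and 42.4 in replicates 1 and 2, so the replicates were further apart than at any of the 3 RNA genes. Y62E10A.24 (the p20 subunit) shared the 26.0 peak of popl-7, and Y37E11AM.4 had 9.24.

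The 5 genes of signal recognition particle RNA, which polymerase III also transcribes in vertebrates, were looked at for contrast after their values had been seen. A thresholded summit was found no more than 500 bp from the start at 2 of them (40%, exact 95% interval 5.27 to 85.3%): srpr-2.2 with a signal of 54.3 and its summit 56 bp inside the gene, and srpr-2.1 with 47.5 and its summit 200 bp inside. Both signals were below that of yrn-1. At srpr-2.2 and srpr-2.1, 58.8% and 56.5% of the 32-base words within 100 bp of the start were unique, against 100% at yrn-1. Among the SRP RNA genes without a thresholded peak, the share was 100% at srpr-3, 47.1% at srpr-1.2 and 28.2% at srpr-1.1. Whether repeated sequence bears on these peaks was not tested. All 5 end with a run of at least 4 T, as rpr-1, mrpr-1 and yrn-1 do, and none holds the upstream word or TATATA before the start.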

How the data were processed

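The ChIP-seq was deposited as peak lists, and 4 on ce11 were used: 1 per replicate, 1 pooled over both and 1 thresholded. The lists per replicate and pooled hold peaks and background meant for an irreproducible discovery rate step, and used a control alignment, per the deposited text records. No control library was used here. No source used here names the aligner, peak caller, versions or threshold. The 4 lists on ce10 were not used. For each peak the authors deposited a signal value, which ranks it within its list, a −log10 q-value and a summit offset, added to the peak's start here. The thresholded set was checked to be the 1648 pooled peaks of highest signal.

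Genes came from Ensembl release 115 on WBcel235, which has the chromosome lengths of ce11, and coordinates are 1-based. A conserved core told U1, U5 and U6 apart among the 129 annotated snRNA genes, and SL2 and SmY RNA genes went by name. The strongest summit within 1000 bp of a member or 500 bp of another gene's start was taken, and replicate summits were matched within 200 bp. Shares have exact Clopper-Pearson intervals at 95% from SciPy, for counting error only. The text names the members, annotated genes within 1000 bp, the protein genes and the 3 noncoding genes nearest in rank to each member. It also names the genes whose sequences are shown, genes at a peak or match that is described, and genes said to be added. The members, lists and words were chosen with earlier results of these data known. Alternatives were other windows, any overlap, the stronger 824 peaks, each replicate alone, the nearest summit, other match distances, no mitochondrial peaks and other sequence windows. The steps were checked on simulated data. Python 3.11.15, numpy 2.4.6, pandas 2.3.3, SciPy 1.17.1 and matplotlib 3.10.9 were used.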

Additional observations from a re-analysis of the deposited data

How the results depend on the processing

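All 3 genes had a thresholded peak under every alternative tried for that count: windows of 250 to 2000 bp, any overlap, the stronger 824 peaks and each replicate alone. Of 105 alternative values, 87 stayed within the replicate spread or within 1.5 times a count, and 18 moved. Some of the 87 could not move. The signal of 1 replicate always lies within 1 SD of the mean of 2, and all 3 peaks rank within the stronger 824. The tally is therefore not a measure of robustness. Without mitochondrial peaks the ranks were 16 for rpr-1 and 50 for mrpr-1. The 2397 genes with a summit near the start became 5258 with 2000 bp and 1267 with the stronger 824 peaks. With 1000 bp the median rank, as a percentage of the list, was 3.28 for SL2 (4.98 with 500 bp), 9.59 for SmY (12.0) and 12.1 for U1 genes (10.1). In the 60 bp before the start, rpr-1 and mrpr-1 held 0 of the octamers, against 4 and 1. Each replicate alone put rpr-1 at rank 21 to 23 and -55 to -24 bp, mrpr-1 at rank 57 to 64, and yrn-1 at -37 to 2 bp. The median rank was then 10.7 to 11.4% for U6 (10.2% with both), 4.67 to 4.79% for SL2 and 8.13 to 10.6% for U1 genes. The cause of these changes was not tested, except that fewer peaks, bases or wider windows change counts by construction. No paired analysis was possible because there is 1 group. Depth is unknown, so neither a missing peak nor the gap between replicates can be set against counting error, and with 2 replicates an SD is itself imprecise. Whether repeated sequence bears on the U6 counts or on the signals of the comparison classes was not tested.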
